A study of Mus musculus with 6 samples.

Results

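Transcripts of 10 genes that encode core subunits of the Polycomb repressive complexes (Ezh1, Ezh2, Eed, Suz12, Bmi1, Rnf2, Ring1, Cbx2, Cbx7 and Phc1) were measured in mouse embryos with and without a deletion of Brg1, of 19504 genes named on the array. They were taken by gene name, older symbols included, from the non-control spots, and 17 of the 41174 distinct probes of the array belonged to them. Of the 10 genes, Ezh1 rose in the mutant and none fell. Ezh2, Eed, Suz12, Bmi1, Rnf2, Ring1, Cbx2, Cbx7 and Phc1 did not pass the test. Over all genes measured 10.6% passed, so 1 of 10 is near the background. Ezh1 passed in 8 of 18 alternative fits.

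Polycomb proteins keep developmental genes silent through marks on histones. In Polycomb repressive complex 2 (PRC2) the methyltransferase Ezh2 or its paralog Ezh1 works together with Eed, which binds the methyl mark, and Suz12, which holds the complex together, to methylate histone H3. In Polycomb repressive complex 1 (PRC1) the ubiquitin ligase Rnf2 or its paralog Ring1, paired with a ring finger partner such as Bmi1, ubiquitinates histone H2A, while chromodomain subunits such as Cbx2 and Cbx7 read the methyl mark and Phc1 joins complexes to one another. Brg1, encoded by Smarca4, is an ATPase of the SWI/SNF chromatin remodelling complexes, which are known from genetics as opponents of Polycomb silencing.

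The mutant group was Brg1d/d, the conditional knockout of Brg1, and the control group was Brg1fl/fl, in which Brg1 carries loxP sites and is labelled as wild type. Both groups were whole embryos at embryonic day 8.5 from dams injected intraperitoneally with tamoxifen, with 3 biological replicates in each. The Cre driver, the deleted exons, the tamoxifen dose and day, and whether a replicate was a single embryo or a pool are not stated in the sources available. Total RNA (250 ng per sample) was converted to Cy3-labelled cRNA for 1-colour Agilent mouse arrays. A level below is the log2 signal of a probe minus the 75th percentile of its array, so 0 is the brightness of that percentile. Levels are listed in the order of replicates 1, 2 and 3, a difference is Brg1d/d minus Brg1fl/fl with its standard error from limma, and "passed" means a Benjamini-Hochberg adjusted p under 0.05 over all probes tested. Levels of different probes are not compared, because probes differ in how well they bind. In RNA of whole embryos, fewer cells of a type and less RNA per cell cannot be told apart.

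Brg1d/d replicates 1 and 3 had 73.5% and 72.9% of spots well above background, and the other arrays 68.5% to 69.3%. The 75th percentile was 1627 and 1582 units on those 2 arrays, against 958 to 1010 units on the others. The brightest Smarca4 probe was at 1.49, 2.65 and 1.9998 in Brg1d/d and at 5.28, 4.45 and 4.50 in Brg1fl/fl, a difference of -2.69 ± 0.36 (adjusted p = 0.0114, limma; -2.09 and adjusted p = 0.131 with the 2 arrays of dim spike-ins as a block), as the labels imply, although whether any Smarca4 probe lies in the deleted part is not known here. By their barcodes, the 3 controls shared 1 slide and each Brg1d/d array had a slide of its own. Genotype and slide therefore cannot be told apart in any fit here. All 3 controls and Brg1d/d replicate 2 were scanned on 1 day, and Brg1d/d replicates 1 and 3 on 2 other days. On these latter arrays the brightest spike-in RNA was at 12934 and 6905 units, against 208550 to 241121 units on the other arrays, and the cause of this split was not tested. For this reason the results also carry a same-day difference, which is Brg1d/d replicate 2 minus the mean of the controls, with no test of its own. This same-day difference rests on 1 mutant array and still sets 1 slide against another. With the spike-in split as a block the difference has that same value and can be tested, and 0.812% of genes then passed.
Marker genes of the embryo and of neighbouring tissues also differed between arrays. The summed level of 10 yolk sac endoderm markers was 6.86 in control 1 and 8.81 to 9.11 on the other arrays (none rose, none fell). That of 10 primitive erythroid markers was 6.03 to 6.31 in Brg1d/d and 6.16 to 8.18 in the controls, with control 1 lowest. Signals were summed before the log, so the brightest markers weigh most. Of the 10 erythroid markers 8 were lower and 2 higher in Brg1d/d, while 1 fell and none rose by the test. The 9 measured trophoblast markers summed to 6.86 to 7.09 in Brg1d/d and 6.18 to 6.61 in the controls (5 of the 9 rose, none fell). The 9 measured decidua markers summed to 1.05 to 1.20 in Brg1d/d and 2.44 to 3.69 in the controls (1 rose, 5 fell). The 8 whole embryo markers summed to 4.12 to 4.43 and 4.14 to 4.66 (none rose, 2 fell). The 10 proliferation markers summed to 7.50 to 7.67 and 7.66 to 7.69 (none rose, 1 fell). The 8 measured leukocyte markers summed to -1.01 to -0.44 and -1.38 to -0.58 (none rose, 1 fell). The part of these markers in the Polycomb results was not tested.

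All 17 probes of the core genes were well above background on all 6 arrays, so none of them entered through 1 genotype alone. Across all genes measured, 1587 of 15026 passed (10.6%), 789 higher in Brg1d/d (5.25%) and 798 lower (5.31%). Of the 10 core genes, counted through the brightest probe of each, 1 passed, a share near the background. With the spike-in split or the scan day as a block none of the 10 passed. The median difference of the 10 was 0.02, with 5 higher and 5 lower, beside a median of 0.07 over all genes. Their median size of difference was 0.26 against 0.38, and 7 of the 10 differed by less than 0.5 against 60.7% of all genes. The spread within a group was ordinary too, with a median SD over the core genes of 0.21 in Brg1d/d and 0.24 in Brg1fl/fl, against 0.20 and 0.23 over all genes.

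**Figure D1:**
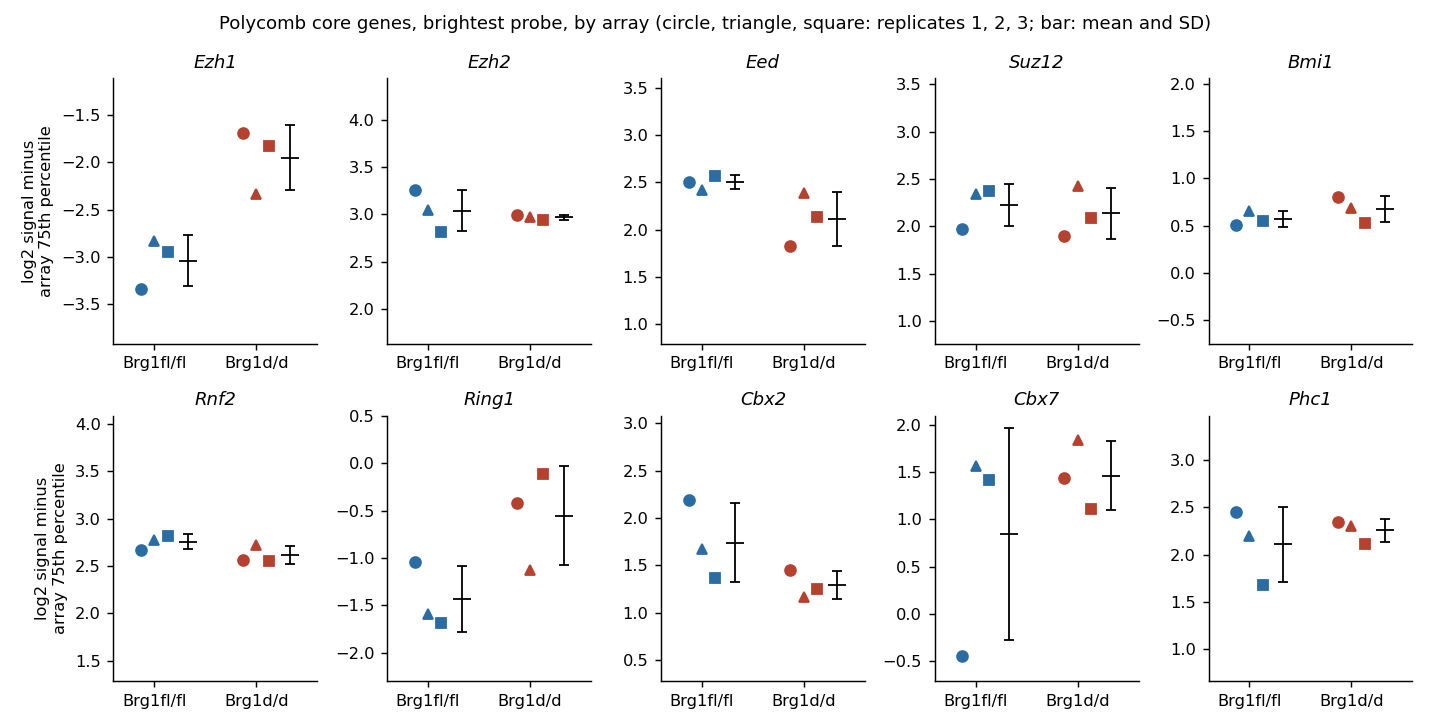
Level of the brightest probe of each core gene by array (y axis, log2 units relative to the 75th percentile of the array) in Brg1fl/fl (blue) and Brg1d/d (red); the horizontal line and bars are the mean and SD of 3 replicates, and every panel spans the same number of log2 units. Ezh1 is separated between genotypes, Ring1 is higher with 1 pair of arrays overlapping, control 1 stands alone for Cbx7, and Ezh2, Suz12, Bmi1 and Rnf2 overlap between genotypes.

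Among the PRC2 genes, Ezh1, the methyltransferase known for its presence in non-dividing cells, was at -1.69, -2.34 and -1.83 in Brg1d/d and at -3.34, -2.83 and -2.95 in Brg1fl/fl. Every Brg1d/d array was above every control, as for 22.8% of all genes. The nearest pair was Brg1d/d replicate 2, the array scanned with the controls, and control 2. The group means were -1.95 ± 0.34 and -3.04 ± 0.27 (SD, n = 3 each), a difference of 1.09 ± 0.24 (95% interval 0.52 to 1.65) or 2.12-fold (adjusted p = 0.0405, limma). Its single probe, A_52_P237871, is placed by the array's annotation at chr11:101300862-101300921 (mm7, minus strand). The same-day difference was 0.70, and with normexp background the difference over all arrays was 0.69 (adjusted p = 0.0398, limma). With the spike-in split as a block the call was lost (adjusted p = 0.360), as it was with median scaling (adjusted p = 0.0531), with no filter on dim probes (0.0808), and without Brg1d/d replicate 1 (adjusted p = 0.139), Brg1d/d replicate 3 (0.146), control 1 (0.0532), control 2 (0.114) or control 3 (0.0815).

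Ezh2, the main methyltransferase of the complex in dividing cells, was at 2.99, 2.97 and 2.94 in Brg1d/d and at 3.25, 3.04 and 2.82 in Brg1fl/fl. The mutant arrays lay within the range of the controls with a range of 0.051. The difference was -0.07 ± 0.17 (95% interval -0.47 to 0.33, adjusted p = 0.79), and the same-day difference was also -0.07. The interval therefore leaves room for changes of up to these bounds and does not show that Ezh2 was equal in the genotypes.

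Eed was at 1.82, 2.39 and 2.13 in Brg1d/d and at 2.50, 2.42 and 2.57 in Brg1fl/fl. All 3 mutant arrays were below all 3 controls, with Brg1d/d replicate 2 only just below control 2. Groups that did not overlap were common, at 41.9% of genes, 22.8% with Brg1d/d higher and 19.1% with it lower. Eed's difference of -0.38 ± 0.19 (95% interval -0.84 to 0.07) did not pass (adjusted p = 0.207), and its same-day difference was -0.11.
Suz12 was at 1.90, 2.43 and 2.09 in Brg1d/d and at 1.98, 2.34 and 2.37 in Brg1fl/fl on its brighter probe. The genotypes overlapped, and the difference was -0.09 ± 0.21 (95% interval -0.58 to 0.40, adjusted p = 0.781). The dimmer Suz12 probe gave -0.17 ± 0.25. On the same day these probes gave 0.20 and 0.24, opposite in sign to the differences over all arrays.

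The probes that carry the Ezh2 and Eed results are shown because each joins bases that lie apart in the genome, so it reads spliced RNA. Their 60 letters were annotated to span 896 bases (Ezh2, chr6:47568744-47569639) and 2910 bases (Eed, chr7:85913246-85916155) of mm7, both on the minus strand. Capitals mark the only reading frame of the probe that holds no stop codon, 19 codons in each.
Ezh2 probe A_51_P248067: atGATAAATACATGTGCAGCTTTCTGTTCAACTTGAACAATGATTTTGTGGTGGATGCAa
Eed probe A_51_P238643: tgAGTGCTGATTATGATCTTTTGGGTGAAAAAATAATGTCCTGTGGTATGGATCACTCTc

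The paralogs Ezh1 and Ezh2 were set against each other within each array, as the level of the Ezh1 probe minus that of the Ezh2 probe. This within-array difference was -4.68, -5.31 and -4.77 in Brg1d/d and -6.59, -5.87 and -5.77 in Brg1fl/fl. All 3 mutant arrays were above all 3 controls. The shift was 1.16, with p = 0.1 by an exact two-sided permutation test over the 6 arrays, the smallest p that 3 against 3 allows (0.3 after adjustment over the 3 paralog pairs examined). On the same day the shift was 0.76. A test of this size cannot show that the probes changed unequally, and the values say nothing on which methyltransferase was more abundant.

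Windows around the annotated starts of both genes are printed so that the gene that passed can be read beside its paralog. Both are RefSeq sequences of GRCm38.p6, running from 250 bases before to 30 bases after the start, on the minus strand: chr11:101226434-101226713 for Ezh1 and chr6:47595001-47595280 for Ezh2. A set of 3 spellings of the E2F site, the binding site of the cell cycle factors known to drive Ezh2, were searched on both strands of the table's longer windows, 300 bases that end 50 bases after the start (TTTCGCGC, TTTGGCGC and TTTCCCGC, which do not overlap one another in these windows), and capitals mark a match.
Ezh1 promoter: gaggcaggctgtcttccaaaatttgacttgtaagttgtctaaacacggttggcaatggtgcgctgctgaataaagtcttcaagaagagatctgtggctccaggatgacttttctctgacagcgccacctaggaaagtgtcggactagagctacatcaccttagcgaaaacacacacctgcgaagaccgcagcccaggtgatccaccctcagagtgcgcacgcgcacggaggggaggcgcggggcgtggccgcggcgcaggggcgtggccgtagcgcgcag
Ezh2 promoter: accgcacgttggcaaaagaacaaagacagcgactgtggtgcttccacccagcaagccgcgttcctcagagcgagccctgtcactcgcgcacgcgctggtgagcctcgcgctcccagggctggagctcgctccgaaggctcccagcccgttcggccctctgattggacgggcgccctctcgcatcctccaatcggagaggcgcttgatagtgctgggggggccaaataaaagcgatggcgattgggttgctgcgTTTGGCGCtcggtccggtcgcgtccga
The Ezh2 window held 1 match, 4 bases after the start, and the Ezh1 window held none, which says only that these letters are not in it. Of the 9 core genes with a window (Cbx2 had none in the table), Ezh2 and Suz12 had a match. So did 1 of 21 other Polycomb genes with a window, the PRC2 partner Phf19, and 606 of 32851 windows of the table (1.84%). Every spelling holds a CG pair and these sets were not matched for CG pairs, so no enrichment can be read from the counts. The 300-base windows held 23 CG pairs for Ezh1 and 31 for Ezh2, against a median of 7 and an upper quartile of 20 over all windows of that length.

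Among the PRC1 ligase genes, Rnf2, the main ligase, was at 2.56, 2.72 and 2.55 in Brg1d/d and at 2.67, 2.78 and 2.82 in Brg1fl/fl. The genotypes overlapped, and the difference was -0.14 ± 0.14 (95% interval -0.49 to 0.21, adjusted p = 0.517). Its other probe gave -0.08 ± 0.21.
Its paralog Ring1 was at -0.42, -1.13 and -0.11 in Brg1d/d and at -1.04, -1.59 and -1.68 in Brg1fl/fl on the brighter probe. Brg1d/d replicates 1 and 3 were above all controls, while replicate 2, the array scanned with the controls, was below control 1. The difference of 0.88 ± 0.31 (95% interval 0.13 to 1.64, 1.84-fold) did not pass (adjusted p = 0.117), and the same-day difference was 0.31.
A second Ring1 probe, A_52_P41728 (chr17:32100231-32100290, mm7, minus strand), was at -0.66, -1.04 and -0.75 in Brg1d/d and at -1.33, -1.79 and -1.92 in Brg1fl/fl. On this dimmer probe every Brg1d/d array was above every control, as for 22.8% of all genes counted at their brightest probe. The difference of 0.86 ± 0.21 was of the same size as on the first probe and also missed the threshold (adjusted p = 0.0553), and on the same day the difference was 0.64. Its sequence is shown because it gave the closer replicates of the 2, and all 3 of its reading frames are free of stop codons.
Ring1 probe A_52_P41728: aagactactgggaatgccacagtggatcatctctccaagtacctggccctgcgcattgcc
Within each array, the Ring1 level minus the Rnf2 level was -2.98, -3.85 and -2.66 in Brg1d/d and -3.70, -4.36 and -4.50 in Brg1fl/fl. Brg1d/d replicate 2 was below control 1, and the shift of 1.03 had p = 0.2 in the exact two-sided permutation test (0.3 adjusted), with 0.34 on the same day.

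Bmi1, the ring finger partner of the ligase, was at 0.80, 0.68 and 0.53 in Brg1d/d and at 0.50, 0.66 and 0.54 in Brg1fl/fl. The groups overlapped and the difference was 0.10 ± 0.15 (95% interval -0.26 to 0.47, adjusted p = 0.66). Its dimmer probe gave -0.08 ± 0.37.
Phc1, the polyhomeotic subunit, was at 2.35, 2.30 and 2.12 in Brg1d/d and at 2.45, 2.20 and 1.68 in Brg1fl/fl on its brightest probe. The groups overlapped (0.14 ± 0.23, 95% interval -0.41 to 0.70, adjusted p = 0.685). The other 2 Phc1 probes lay further apart between genotypes, at 0.44 ± 0.24 (adjusted p = 0.248) and 0.71 ± 0.20 (adjusted p = 0.0761).
On the latter, A_52_P373369 at chr6:122348118-122348177 (mm7, minus strand), Phc1 was at -0.28, -0.67 and -0.67 in Brg1d/d and at -0.98, -1.30 and -1.48 in Brg1fl/fl. There was no overlap, as for 22.8% of all genes in this direction at their brightest probe, and the same-day difference was 0.58. The 3 probes thus gave one direction and unequal sizes. The probe is printed because it departed furthest from the brightest one, with its only stop-free frame of 19 codons in capitals.
Phc1 probe A_52_P373369: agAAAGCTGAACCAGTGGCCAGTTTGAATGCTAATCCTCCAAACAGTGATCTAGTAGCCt

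Among the chromodomain genes, Cbx2 was at 1.45, 1.17 and 1.26 in Brg1d/d and at 2.19, 1.67 and 1.36 in Brg1fl/fl. Control 1 was highest and Brg1d/d replicate 1 was above control 3. The difference was -0.45 ± 0.24 (95% interval -1.03 to 0.13, adjusted p = 0.241), with -0.57 on the same day and -0.10 ± 0.26 on the dimmer probe. Without control 1 the difference on the brighter probe was -0.22 (adjusted p = 0.403, limma).

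Cbx7, the other chromodomain subunit, was at 1.44, 1.84 and 1.11 in Brg1d/d and at -0.45, 1.56 and 1.42 in Brg1fl/fl. Control 1 stood at -1.94 relative to the mean of the other controls, a gap reached or passed downwards by 3.33% of genes, and the remaining 5 arrays lay between 1.11 and 1.84. With all arrays the difference was 0.62 ± 0.55 (95% interval -0.70 to 1.93, adjusted p = 0.457). Without control 1 it was -0.03 (adjusted p = 0.944). Control 1 was also the array on which all 10 yolk sac endoderm markers were below the mean of the other 2 controls (median -2.60), and so were all 10 primitive erythroid markers (median -2.95). The Brg1d/d arrays had low summed erythroid markers as well, at 6.03 to 6.31, although only 1 of the 10 single markers fell. Their Cbx7 levels were like those of controls 2 and 3. The part of these markers in the Cbx7 level of control 1 was not tested. The Cbx7 level minus the Cbx2 level within each array was -0.02, 0.67 and -0.15 in Brg1d/d and -2.64, -0.11 and 0.05 in Brg1fl/fl. Control 1 was lowest, and the shift was 1.07, with p = 0.5 in the exact two-sided permutation test (0.5 adjusted). On the same day the shift was 1.57.

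**Figure D2:**
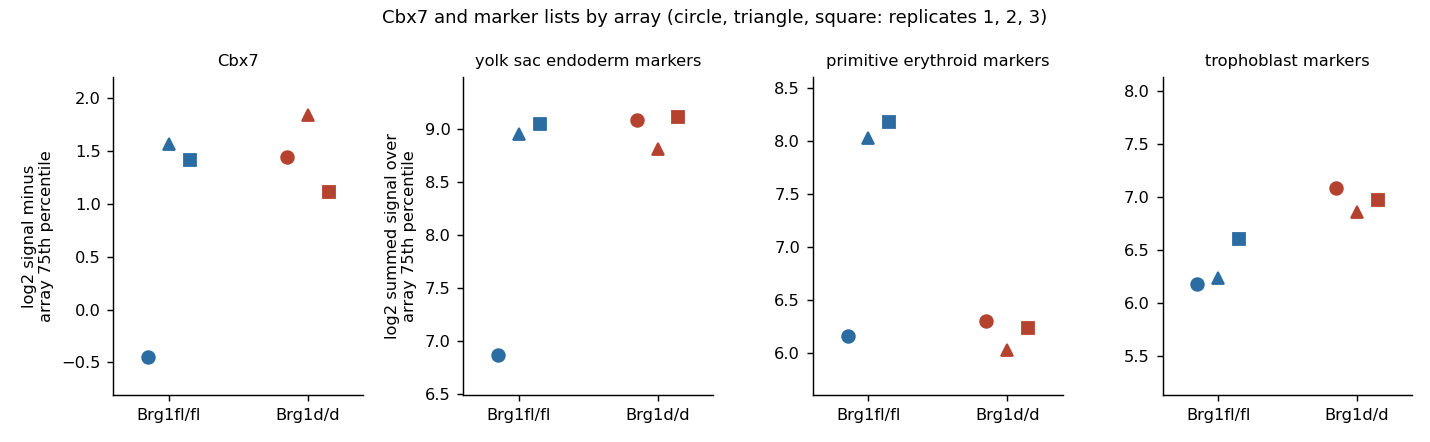
Cbx7 level (left, log2 units relative to the 75th percentile of the array) and the summed levels of 3 marker lists (log2 of the summed signal over the array's 75th percentile) on each array, Brg1fl/fl in blue and Brg1d/d in red. Control 1 (blue circle) is at -0.45 for Cbx7 and 6.86 for the yolk sac endoderm markers, below the other 5 arrays in both, while for the erythroid markers it lies with the Brg1d/d arrays.

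**Figure D3:**
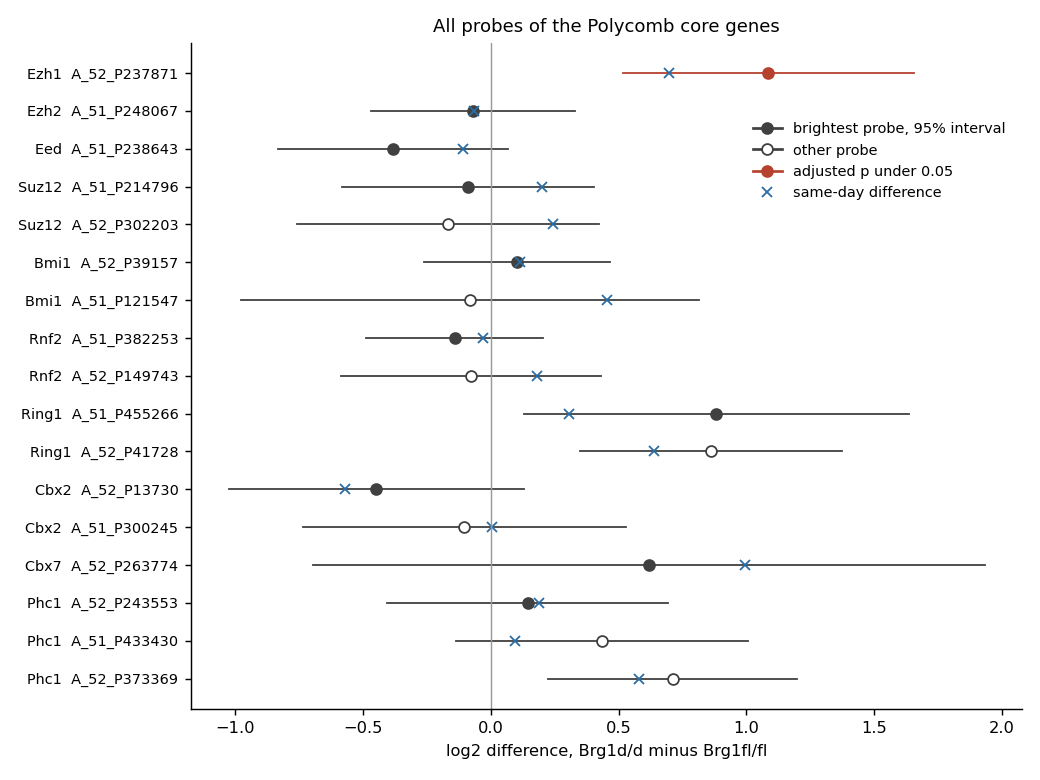
Difference Brg1d/d minus Brg1fl/fl (x axis, log2) for each of the 17 probes of the core genes, with its 95% interval; filled circles are the brightest probe of a gene, open circles its other probes, red is an adjusted p under 0.05 and blue crosses are same-day differences. The Ezh1 interval of 0.52 to 1.65 lies above 0, as do those of both Ring1 probes and the dimmest Phc1 probe, which did not pass after adjustment.

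Over the 17 probes, 1 passed, beside 9.37% of all probes tested. At an unadjusted p under 0.05, 2 of the 10 genes were counted, Ezh1 and Ring1, against 32.6% of all genes. The probes of Suz12, Rnf2, Ring1, Cbx2 and Phc1 gave the same sign within each gene, and those of Bmi1 differed in sign at differences of 0.10 and -0.08.

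The genes whose pattern over the 6 arrays was nearest to that of Ezh1, by Euclidean distance after each probe's mean was subtracted, were Meak7 at 0.177, Ilvbl at 0.185 and Prkag1 at 0.190, of 15017 genes compared. Meak7 encodes a protein linked to mTOR signalling and Prkag1 a regulatory subunit of the AMP-activated kinase. Their same-day differences were 0.75, 0.78 and 0.67, beside 0.70 for Ezh1. The genes were picked by their levels on these same arrays, so this likeness follows from the choice and adds no support.

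Other Polycomb genes were counted from lists named for their role. Of 8 PRC2 partner genes 1 rose and none fell. Of the 16 other PRC1 genes given here none passed by limma, with 4 at an unadjusted p under 0.05. Beside these counts, 10.6% of all genes passed, with 5.25% rising and 5.31% falling. The medians of these lists were 0.20 and 0.24, against 0.07 for all genes. On the same day they were 0.17 and 0.12, against 0.0038 for all genes. Of these 24 genes 18 were higher in Brg1d/d, beside 8258 of all 15026. At an unadjusted p under 0.05 there were 7 of the 24, beside 32.6% of all genes.
Phf19, a PRC2 partner that binds methylated histone H3 and recruits the complex, was at -0.31, -0.54 and -0.99 in Brg1d/d and at -2.16, -2.16 and -2.13 in Brg1fl/fl. All mutant arrays were above the controls, as for 22.8% of all genes, and the controls lay close to each other. The difference was 1.54 ± 0.21 or 2.90-fold (adjusted p = 0.0111, limma), with 1.61 on the same day. The call was lost without control 2 (adjusted p = 0.0610) and with the spike-in split as a block (adjusted p = 0.115).
The PRC1 genes given here with the smallest p were Bcor, a partner of a variant PRC1, at 0.88 ± 0.24 (adjusted p = 0.0662), and Pcgf2, a ring finger paralog of Bmi1, at 0.58 ± 0.17 (adjusted p = 0.0757). All 3 Bcor probes were higher in Brg1d/d, at 0.88 to 1.15, and none passed. Among the PRC2 partners, genes with every probe lower and none passing are named after their values were seen. Mtf2, a PRC2 partner of the same family as Phf19, had 4 probes at -0.86 to -0.41, and Aebp2, another PRC2 partner, had 2 at -0.83 and -0.78.

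**Figure D4:**
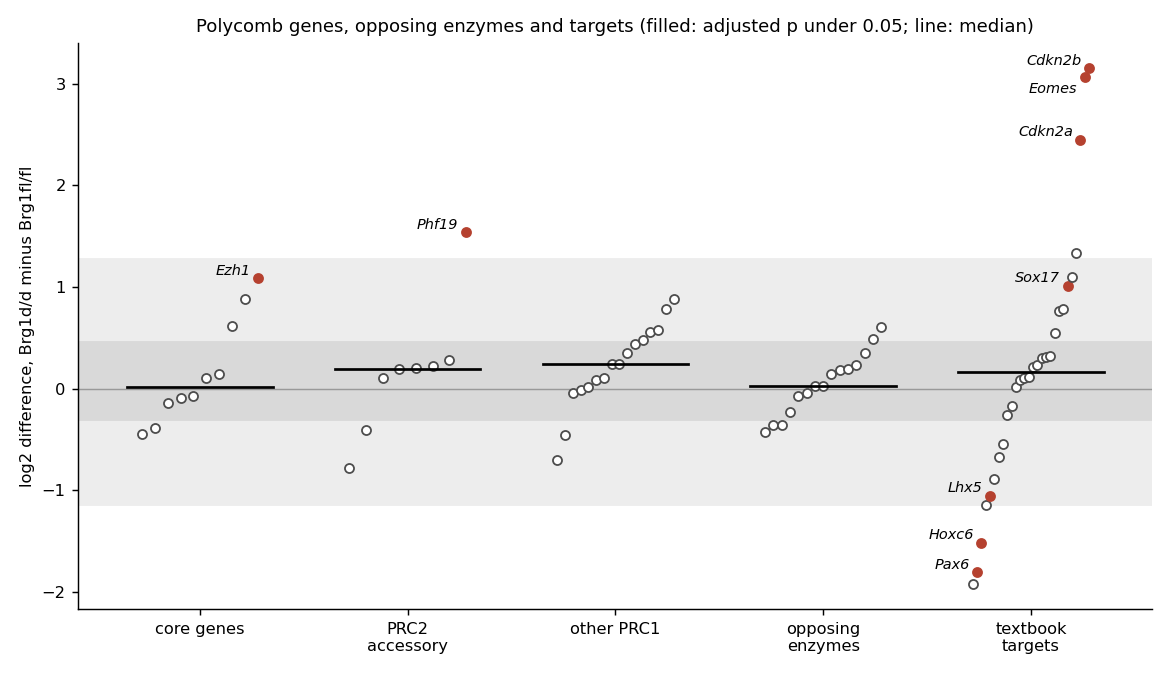
Difference Brg1d/d minus Brg1fl/fl (y axis, log2) of the genes given here among the core genes, the other Polycomb lists, the opposing enzymes and the textbook targets, 1 point per gene at its brightest probe, ordered by value; filled red points passed, black lines are medians, and the darker and lighter bands hold the middle 50% and 90% of all genes. The core genes centre on 0.02 with Ezh1 at the top at 1.09, and the targets spread furthest, from Pax3 at -1.92 to Cdkn2b at 3.15.

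Genes that oppose Polycomb (demethylases of histone H3, the deubiquitinase complex of Bap1, and trithorax group methyltransferases) gave no passing gene among 15 measured of 16 (10.6% of all genes passed) and 2 at an unadjusted p under 0.05 (32.6% of all genes). Their median was 0.03. The 2 were Kmt2b, a trithorax group methyltransferase, at 0.60 ± 0.20 (adjusted p = 0.098), and Asxl1, a cofactor of Bap1, at 0.49 ± 0.19 (adjusted p = 0.137). A dimmer probe of Asxl2, named after its value was seen, passed at 0.93, while the brightest Asxl2 probe was at 0.19 and the third at -0.31.

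Of 28 genes widely described as Polycomb targets, 4 rose and 3 fell, beside 5.25% and 5.31% of all genes, with a median of 0.16 beside 0.07. The list was chosen from general knowledge, and no histone mark was measured here, so whether these genes carried Polycomb in these embryos is not known. Those that rose included Cdkn2b and Cdkn2a, inhibitors of cell cycle kinases from a locus silenced by Polycomb in many cell types.
Cdkn2b was at -0.67, -0.55 and -0.52 in Brg1d/d and at -3.99, -3.64 and -3.56 in Brg1fl/fl. The genotypes lay far apart, with a difference of 3.15 ± 0.17 or 8.89-fold (adjusted p = 0.00110, limma), 3.18 on the same day and 2.38 with normexp background.
Cdkn2a was at -1.73, -1.57 and -1.61 in Brg1d/d and at -5.41, -3.40 and -3.45 in Brg1fl/fl. Control 1 was lowest, and the difference was 2.45 ± 0.54 or 5.46-fold (adjusted p = 0.0407, limma), with 2.51 on the same day. It was 1.79 without control 1 and 1.54 with normexp background.
Eomes, a T-box factor of trophoblast and mesendoderm that is also among the trophoblast markers, rose by 3.07 ± 0.58 or 8.38-fold (adjusted p = 0.0290, limma). Its controls were at -6.02, -4.67 and -3.56, and the difference was 2.43 without control 1, 3.66 without control 3 and 1.68 with normexp background. Sox17, an endoderm factor, rose by 1.01 ± 0.18 (adjusted p = 0.0233), and its dimmer probe gave 1.48 ± 0.20 (adjusted p = 0.0117, limma). Those that fell were Pax6, a neural and eye factor, at -1.81 ± 0.36 (adjusted p = 0.0319), Hoxc6, a posterior patterning gene, at -1.52 ± 0.35 (adjusted p = 0.0469), and Lhx5, a forebrain factor, at -1.06 ± 0.24 (adjusted p = 0.0463). The dimmer Pax6 probe was at -1.10 ± 0.30 and did not pass (adjusted p = 0.0675, limma). Of the 9 Hox genes in the list none rose and 1 fell (median 0.08), and of the other 19 genes 4 rose and 2 fell (median 0.30). At an unadjusted p under 0.05 there were 14 of the 28, beside 32.6% of all genes. With the spike-in split as a block Cdkn2b alone of the 28 passed, and the calls of the other 6 also ended when single arrays were left out: Brg1d/d replicate 1 (adjusted p 0.0806 to 0.162), Brg1d/d replicate 3 (0.0731 to 0.161) or control 2 (0.0876 to 0.136) for all 6, Brg1d/d replicate 2 for Cdkn2a (0.0603) and Hoxc6 (0.0556), and control 3 for Cdkn2a (0.0550), Sox17 (0.0569) and Lhx5 (0.0777).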

How the data were processed

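Per the labels, RNA of 3 Brg1d/d and 3 Brg1fl/fl whole embryo samples was made into Cy3-labelled cRNA for 1-colour Agilent arrays. The authors obtained the deposited intensity values from Agilent Feature Extraction 9.5, per the submitters' processing notes: background-subtracted processed intensity, raw mean and local background intensity, and flags of 0 or 1 (other) per spot. The deposited series table held the same processed intensity at 100.0% of spots (relative tolerance 1e-4).

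Control spots were dropped, as were 53 to 83 outlier spots on each array, replicate spots were averaged, and the deposited intensity taken to log2 minus the array's 75th percentile. A probe stayed in when every array of 1 genotype or the other had it well above background, which left 27854. Through a RefSeq table (GRCm38.p6), 32709 of 41174 probes were named for 19504 genes. Probe coordinates are the array's own (mm7). limma 3.58.1 (lmFit, eBayes; R 4.3.3) compared genotypes over all 6 arrays, two-sided, with Benjamini-Hochberg adjustment over all kept probes, and the brightest probe by mean level over the arrays stood for its gene. In simulated data 67, 67 and 66 of 27841 probes were given log2 changes of 1, 2 and 4, with no split between arrays. The same code recovered 14.9%, 80.6% and 100% of them. In the real data 9.37% of probes passed and the arrays were split, so these shares do not give the recovery of the real test. The number of arrays limits the precision.

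A gene of the PRC1 list is not reported here and was left out of its counts. The members, lists and tests were chosen with earlier results of these data known. Named were all members and Smarca4, per list of other Polycomb or opposing genes those that passed (or the 2 with the smallest p), up to 4 targets per direction, and the 3 genes nearest to Ezh1. Alternatives changed background correction, scaling, dim-probe filter, probe choice, moderation, array weights, blocks (slide, scan day, spike-in split, replicate number) or left out 1 array.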

Additional observations from a re-analysis of the deposited data

How the results depend on the processing

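Each result was recomputed under 18 alternatives. Of 180 member differences, 158 kept their sign and side of the threshold, 10 (all Ezh1) no longer passed and 4 newly passed. Those that changed sign were Suz12 (0.20 with the spike-in split or scan day as a block), Bmi1 (-0.054 with array weights) and Cbx7 (-0.24 with array weights), and, over the fits that left out 1 array, Ezh2 (-0.18 to 0.037), Suz12 (-0.24 to 0.029), Cbx7 (-0.028 to 0.98) and Phc1 (-0.071 to 0.32). Ezh1 ranged from 0.69 to 1.28 and passed in 8 of 18. Numbers of passing genes, in the order all genes, core genes, other Polycomb genes and targets, were 8393, 4 (2 rose, 2 fell), 14 and 17 with array weights, under which 5 opposing genes passed, and 122, 0, 0 and 1 with the spike-in split as a block. With scan day as a block they were 0, 0, 0 and 0 by limma, with 1796 genes and none of the core genes at an unadjusted p under 0.05. Without the filter on dim probes 694 genes passed, 0 of them core genes and 1 a target, and with median scaling 0 core genes passed. Leaving out 1 array gave 308 to 2544 genes (2544 without Brg1d/d replicate 2, 2223 without control 1, 937 without control 3, 324 and 325 without Brg1d/d replicates 1 and 3, 308 without control 2), 0 to 2 core genes, 0 to 5 other Polycomb genes and 1 to 11 targets. Smarca4 stayed lower but did not pass with the spike-in split (-2.09) or scan day (-2.09) as a block, and ranged from -2.995 to -2.42 with 1 array left out, not passing without Brg1d/d replicate 3 (-2.67). The within-array shift was 0.74 for Ezh1 and Ezh2 with normexp background, and 0.34 for Ring1 and Rnf2 with either of those blocks. The cause of these changes was not tested. Arrays of the same replicate number did not deviate together (correlations of -0.127, 0.081 and 0.091, and not every array correlated best with its own number), so the numbers were not taken as pairs. Of the other Polycomb genes 2 passed when the probes of a gene were averaged or with trend and robust eBayes. With the replicate block 572 genes, 0 core genes, 1 other Polycomb gene and 2 targets passed, and Smarca4 was at -2.69 (adjusted p = 0.0529).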
